A study of Homo sapiens with 6 samples.

Results

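The collagen chains are the 44 genes of the deposited table, among 58219, whose symbol is COL, a number, A and a number. They were measured in 6 RNA-seq libraries of IMR90 cells, a line of normal diploid human lung fibroblasts, expressing ER-RAS. ER-RAS is oncogenic RAS (RASG12V in the study's design text) fused to oestrogen receptor sequence, which 4-hydroxytamoxifen (4OHT) switches on. The cells of all libraries carried ER-RAS and received 100 nM 4OHT, for 30 h in 3 libraries (replicates A, B and C, which the labels call uncommitted controls) and for 72 h in 3 (replicates A, B and C, called committed). The titles give 1.5 and 3 days. As 1.5 days is longer than 30 h, the labels differ on the first time, and 30 h is used here. No group without 4OHT and no uncommitted group at 72 h is among the samples, so commitment and time under RAS cannot be told apart. Whether the replicates were grown as separate cultures is not in the labels, and the p-values therefore cover only library-to-library spread, which may be technical. Nor do they say what promoter drives ER-RAS or whether the line is 1 clone.

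Collagens are the main structural proteins of connective tissue, built from 3 alpha chains wound into a triple helix of Gly-X-Y repeats. Each alpha chain has its own gene, and the type of collagen depends on which chains combine. Fibrillar collagens form the tensile fibres of lung interstitium, type IV forms the sheet of basement membranes, FACIT collagens (fibril-associated collagens with interrupted triple helices) sit on the surface of fibrils, and type VI forms beaded filaments around cells. Fibroblasts are a major source of most of them in the lung, and the same chains accumulate in fibrosis.

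Of the 27 collagen chains tested, 14 fell by 72 h, among them 7 of 9 fibrillar chains, and of the 14 the multiplexin COL15A1 had the largest fold change. Of the 44 chains, 27 passed the expression filter (3 or more libraries with a normalised count of 10 or more) and were tested with limma, a linear model fitted over all genes on log2 values. At a Benjamini-Hochberg adjusted p under 0.05, 14 of the 27 fell, 3 rose and 10 did not pass. Among all 13315 genes tested, 25.0% fell and 23.6% rose, 48.6% in either direction. The edgeR quasi-likelihood test on whole reads also called 14 lower and 3 higher, against 25.0% and 23.8% of all genes. A fall of at least 2-fold was found for 12 chains, against 6.70% of all genes tested. The 3 chains that rose (COL24A1, COL7A1 and COL22A1) were each at least 2-fold higher, as were 5.15% of all genes tested. COL22A1 is among them, and among the 3 of edgeR, only because its 72 h libraries brought it past the filter. Its call is therefore no support for a rise, and 2 rises remain without it. The median log2 fold change of the 27 was -0.77 and that of all genes tested was 0.0051. In 17 chains every 72 h library was below every 30 h library, which held for 29.9% of all genes tested, and in 7 the groups overlapped. In 3 chains every 72 h library was above, which held for 29.3%. COL22A1 is again 1 of these 3, through the same filter.

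**Figure D1:**
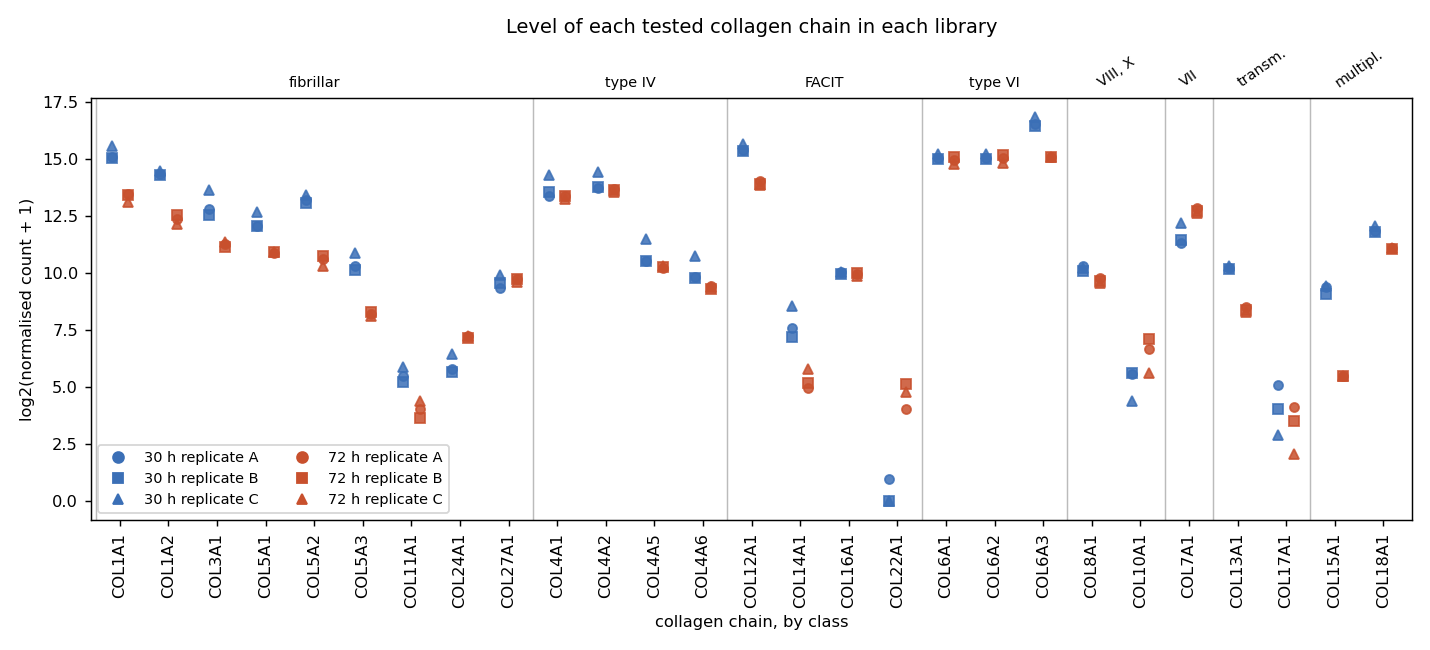
Level of the 27 tested collagen chains in each library, as log2(normalised count + 1), grouped by class (x axis). Blue marks are 30 h and red marks 72 h libraries, with a shape for each replicate letter, and most fibrillar chains sit lower in red while COL24A1, COL7A1 and COL22A1 sit higher.

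The libraries held 13221152 to 15703544 reads assigned to genes. The replicates C lay apart from A and B on the second principal component, with 6.99% of the variance, while the first, with 81.3%, separated the times. The 30 h replicate C touches the collagens: it had the highest 30 h value for 23 of the 27 tested chains, against 38.0% of all genes tested, and the median ratio of replicate C to the mean of A and B was 1.27 for the chains and 0.995 for all genes. Without that library 16 chains fell and 4 rose, COL22A1 again among the 4 (24.4% and 24.2% of all genes then tested). All 10 fibroblast markers checked were detected, among them VIM, FN1, PDGFRA and DCN. Of these 10, 7 fell and 0 rose, against 25.0% and 23.6% of all genes tested, and their summed level was 187769 to 226411 normalised counts at 30 h and 96380 to 112359 at 72 h. Among markers of other cells, KRT5 and SFTPC (epithelium), CDH5 (endothelium), CD3E and AIF1 (leukocytes), and IBSP, BGLAP and SP7 (bone) were at 0 in every library. The summed lists went from 734 to 845 at 30 h to 642 to 761 at 72 h for 9 epithelial markers, from 716 to 979.7 to 549.6 to 585 for 8 endothelial ones and from 25.3 to 39.0 to 61.3 to 75.5 for 9 leukocyte ones. The 8 smooth muscle and pericyte markers went from 3637 to 4014 to 1351 to 1606, with MYH11 at or below 3.16 and DES at or below 2.03, and the 7 cartilage and bone markers from 125 to 179 to 16.3 to 36.7. Of the members tested, 1 of 3 epithelial markers rose (CLDN4, 4.24-fold) and 1 fell (KRT18), and 2 of 3 endothelial markers rose (TIE1, 2.60-fold, and EGFL7, 1.79-fold) while TEK, the most abundant, fell 1.81-fold. In the smooth muscle and pericyte list 5 of 6 fell, among them ACTA2, and RGS5 rose, and the only cartilage or bone marker tested, MATN3, fell. The only leukocyte marker tested, CSF1R, was admitted by its 72 h libraries alone, and LMOD1 of the smooth muscle list by its 30 h libraries alone. The part of these markers in the collagen results was not tested. In bulk RNA, fewer cells making a transcript and less of it per cell cannot be told apart.

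Upstream sequences of 5 chains are shown because these chains stand for the different outcomes described here. COL5A3 and COL12A1 fell, COL7A1 rose, and COL6A2 did not pass while its partner COL6A3 fell. COL4A5 is read away from the nearer RefSeq start of COL4A6, and neither of the pair passed the test. Each is the 250 bases before the RefSeq transcription start on GRCh38.p14, 5′ to 3′ on the gene's strand. Capitals mark matches, on either strand, to 4 motifs: TATAAA, the box bound by the general transcription machinery; CCAAT, bound by NF-Y; GGGCGG, bound by Sp1; and TGANTCA, bound by AP-1. No matches overlap each other in these 5.
COL5A3: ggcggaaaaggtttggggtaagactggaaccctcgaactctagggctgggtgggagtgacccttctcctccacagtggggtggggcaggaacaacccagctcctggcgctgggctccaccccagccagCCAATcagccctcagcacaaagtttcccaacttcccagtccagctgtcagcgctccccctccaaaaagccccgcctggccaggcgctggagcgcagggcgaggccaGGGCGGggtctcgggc
COL12A1: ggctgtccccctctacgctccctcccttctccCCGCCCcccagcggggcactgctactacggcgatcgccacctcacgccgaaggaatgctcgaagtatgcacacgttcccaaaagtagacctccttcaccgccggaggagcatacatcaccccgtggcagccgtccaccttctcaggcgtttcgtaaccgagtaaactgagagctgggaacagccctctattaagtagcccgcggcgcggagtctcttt
COL7A1: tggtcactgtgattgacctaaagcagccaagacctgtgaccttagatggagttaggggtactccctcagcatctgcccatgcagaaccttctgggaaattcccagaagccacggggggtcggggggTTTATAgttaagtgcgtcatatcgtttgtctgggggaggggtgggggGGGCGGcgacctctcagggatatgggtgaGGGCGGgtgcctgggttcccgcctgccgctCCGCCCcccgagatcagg
COL6A2: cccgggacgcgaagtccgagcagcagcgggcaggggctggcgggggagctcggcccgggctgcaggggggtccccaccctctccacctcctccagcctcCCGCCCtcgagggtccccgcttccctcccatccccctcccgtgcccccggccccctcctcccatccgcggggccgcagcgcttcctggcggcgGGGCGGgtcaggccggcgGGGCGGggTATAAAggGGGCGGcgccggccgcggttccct
COL4A5: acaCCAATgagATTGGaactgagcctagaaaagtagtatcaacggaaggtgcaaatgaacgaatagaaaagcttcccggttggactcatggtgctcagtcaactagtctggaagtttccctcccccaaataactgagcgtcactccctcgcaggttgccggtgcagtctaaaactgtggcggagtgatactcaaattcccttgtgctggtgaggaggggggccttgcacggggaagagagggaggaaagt

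They lie at chr19:10010505-10010754 (minus strand, COL5A3), chr6:75206054-75206303 (minus, COL12A1), chr3:48595330-48595579 (minus, COL7A1), chr21:46097862-46098111 (plus, COL6A2) and chrX:108439588-108439837 (plus, COL4A5). By GENCODE 29 they hold 15 exonic bases for COL6A2 and 0 for the other 4. COL5A3 had 1 CCAAT and 1 GGGCGG, COL12A1 had 1 GGGCGG, and COL4A5 had 2 CCAAT. COL7A1 had 1 TATAAA and 3 GGGCGG, and COL6A2 had 1 TATAAA and 4 GGGCGG. Of the 35116 promoter windows of this length in the RefSeq table, 10.7% held TATAAA, 32.0% CCAAT, 42.6% GGGCGG and 6.57% TGANTCA. These matches are descriptions of letters, and the data hold no measure of binding. Windows were matched for 32 of the 44 chains, and not for COL1A1, COL1A2, COL2A1, COL3A1, COL5A2, COL6A1, COL6A5, COL8A1, COL9A3, COL14A1, COL20A1 and COL22A1.

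The major fibrillar chains fell together. Of 11 fibrillar genes 9 were tested, 7 of them fell, COL24A1 rose and COL27A1 did not pass, with a median log2 fold change of -1.74. Of all genes tested 25.0% fell and 23.6% rose, with a median of 0.0051. All values that follow are normalised counts unless another scale is named, log2 fold changes are 72 h over 30 h on the log2(normalised count + 1) scale, and each adjusted p is from limma with Benjamini-Hochberg adjustment over all genes tested. COL1A1 (ENSG00000108821.13, chr17:50183289-50201632), which encodes the main chain of type I collagen, stood at 34009, 33812 and 48568 at 30 h in replicates A, B and C and at 11206, 10829 and 8849.6 at 72 h. Every 72 h library lay far below every 30 h library, and 30 h replicate C was the highest. The fall was 3.73-fold (log2 fold change -1.90, SE 0.166, limma adjusted p = 0.000202).

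COL1A2 (ENSG00000164692.17, chr7:94394561-94431232), the partner chain of type I collagen, stood at 20495, 19816 and 22650.1 at 30 h and at 5295, 5833 and 4452 at 72 h. The groups were again well separated, with little spread within either. It fell 4.06-fold (log2 fold change -2.02, SE 0.0986, limma adjusted p = 1.65e-06). COL3A1 (chr2:188974320-189012746), the single chain of type III collagen, which mixes with type I in distensible tissue, stood at 7212, 5888 and 12688 at 30 h and at 2476, 2213 and 2626 at 72 h. Its 30 h replicate C was far above A and B, and all 3 libraries at 72 h were lower than any at 30 h. The fall was 3.34-fold (log2 fold change -1.74, SE 0.298, limma adjusted p = 0.00602), and the log2 fold change was -1.42 without 30 h replicate C.

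The type V chains, which enter type I fibrils and limit their diameter, fell by unequal amounts. COL5A1 (chr9:134641774-134844843) stood at 4200.5, 4236 and 6529.9 at 30 h and at 1873, 1942 and 1915 at 72 h. The 72 h libraries were nearly level with each other and all lower. It fell 2.55-fold (log2 fold change -1.35, SE 0.177, limma adjusted p = 0.00144). COL5A2 (chr2:189031896-189179879) stood at 9314, 8656 and 10821 at 30 h and at 1536, 1697 and 1274 at 72 h, without overlap. It fell 6.40-fold (log2 fold change -2.68, SE 0.121, limma adjusted p = 4.04e-06), the most of the fibrillar chains. COL5A3 (chr19:9959561-10010471), a chain of restricted distribution whose upstream sequence is shown above, stood at 1271, 1126 and 1867 at 30 h and at 293, 312 and 275 at 72 h. No 72 h library came near the 30 h range. It fell 4.72-fold (log2 fold change -2.24, SE 0.184, limma adjusted p = 0.000135). COL3A1 and COL5A2 lie next to each other on chromosome 2 on opposite strands, 19.1 kb apart.

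The less abundant fibrillar chains did not all move the same way. COL11A1, a type XI chain best known from cartilage, fell 2.80-fold from values between 35.6 and 56.9 at 30 h to values between 11.3 and 19.9 at 72 h (log2 fold change -1.49, SE 0.271, limma adjusted p = 0.00148). COL24A1 (chr1:85729233-86156943), a fibrillar chain linked to developing bone, stood at 54.6, 49.8 and 85.4 at 30 h and at 148, 139 and 147 at 72 h. All 3 libraries at 72 h were higher, and 30 h replicate C lay nearest to them. It rose 2.33-fold (log2 fold change 1.22, SE 0.194, limma adjusted p = 0.000667). COL27A1, a fibrillar chain known from cartilage, stood at 639, 758 and 944 at 30 h and at 847, 852 and 763 at 72 h. The groups overlapped, and the log2 fold change was 0.09 (SE 0.133, limma adjusted p = 0.617). It was 0.24 without 30 h replicate C (limma adjusted p = 0.048) and -0.05 without 30 h replicate A.

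**Figure D2:**
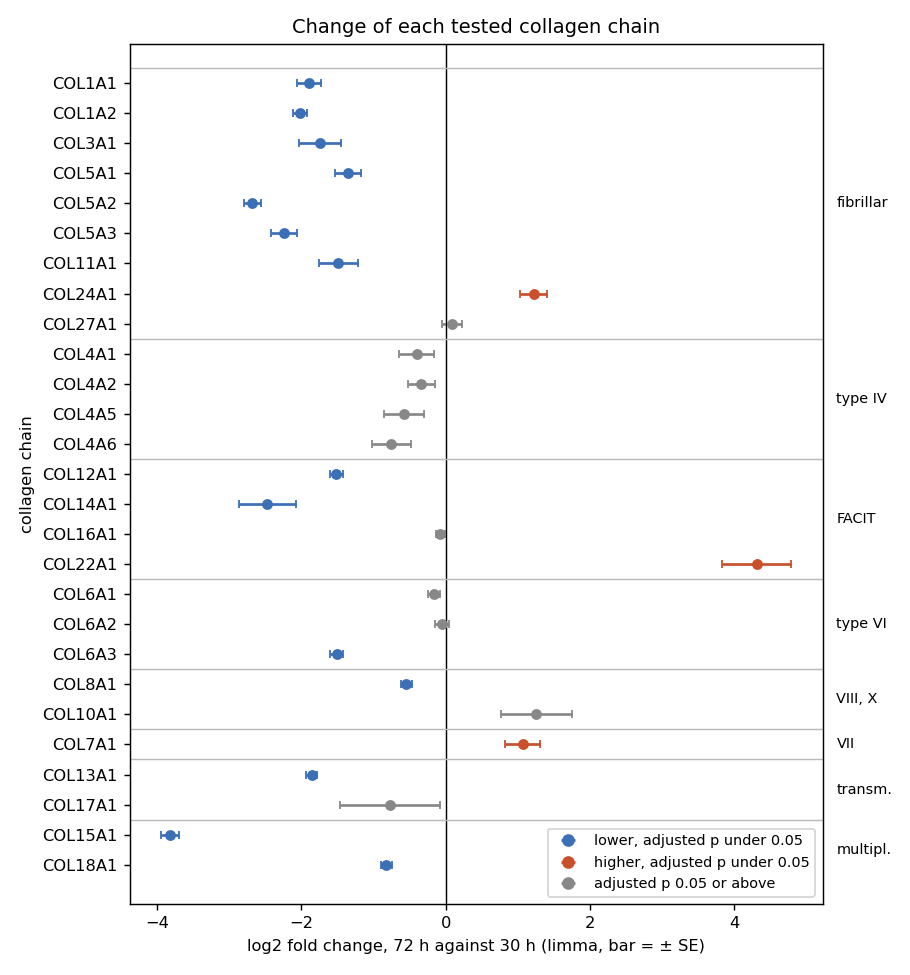
Log2 fold change, 72 h over 30 h, of each tested collagen chain with its standard error from limma (n = 3 libraries a group), by class. Points left of 0 are lower at 72 h, and COL15A1 lies farthest left at -3.82 while the 4 type IV chains, none past the threshold, lie between -0.75 and -0.34.

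None of the 4 tested type IV chains passed the test, which 48.6% of all genes tested did. The fibrillar chains listed above stand in contrast, though that difference between classes was not tested. COL4A1 and COL4A2, which form the common basement membrane network, are read in opposite directions from RefSeq starts 126 bases apart on chromosome 13. In the deposited coordinates the gap between these genes is -1.337 kb, so they overlap there on opposite strands. COL4A1 stood at 10529.9, 11838 and 19697 at 30 h and at 10566, 10393 and 9749 at 72 h. Only 30 h replicate C stood clearly above the rest, and the groups overlapped. The log2 fold change was -0.40 (SE 0.243, limma adjusted p = 0.235). COL4A2 stood at 13653, 13843 and 21698 at 30 h and at 13235, 12722 and 12031 at 72 h. Replicates A and B at 30 h were just above the 72 h libraries and replicate C far above. The log2 fold change was -0.34 (SE 0.187, limma adjusted p = 0.188).

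COL4A5 and COL4A6, chains of a more restricted type IV network, are likewise read apart, with their nearest RefSeq starts 379 bases from each other on chromosome X. COL4A6 has another RefSeq start, at chrX:108438422, and which one these cells use was not tested. COL4A5 stood at 1469, 1449.7 and 2816 at 30 h and at 1186, 1216 and 1258 at 72 h, and COL4A6 at 910.5, 876 and 1703 and at 686, 632 and 655. In both, every 72 h library was below every 30 h library and 30 h replicate C was much the highest. The log2 fold changes were -0.57 for COL4A5 (SE 0.276, limma adjusted p = 0.146) and -0.75 for COL4A6 (SE 0.272, limma adjusted p = 0.0702). Without 30 h replicate C both passed, at -0.26 for COL4A5 (limma adjusted p = 0.00448) and -0.44 for COL4A6 (limma adjusted p = 0.000476). Under that setting COL4A1 was at -0.13 (limma adjusted p = 0.138) and COL4A2 at -0.12 (limma adjusted p = 0.112). COL4A3 and COL4A4, the remaining type IV chains, had 0 reads in every library.

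Of 10 FACIT genes 4 were tested: 2 fell (as did 25.0% of all genes tested), 1 did not pass, and COL22A1 was higher. COL12A1 (ENSG00000111799.20, chr6:75084326-75206051), which bridges fibrils and other matrix, stood at 42253, 40793 and 50523 at 30 h and at 16865, 15277 and 14522 at 72 h. The groups were far apart. It fell 2.85-fold (log2 fold change -1.51, SE 0.0896, limma adjusted p = 2.01e-06). COL14A1, a related FACIT chain that binds fibril-coating proteoglycans, stood at 190.1, 144 and 374 at 30 h and at 29.6, 34.9 and 54.5 at 72 h. Replicate C was the highest at both times, and the groups did not overlap. It fell 5.55-fold (log2 fold change -2.47, SE 0.393, limma adjusted p = 0.00259), with a log2 fold change of -2.08 without 30 h replicate C.

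COL16A1, a FACIT chain of diverse fibrillar structures, stood at 1037, 999 and 1057 at 30 h and at 993, 1020.2 and 931 at 72 h. These groups overlapped, and the log2 fold change was -0.07 (SE 0.0592, limma adjusted p = 0.351). COL22A1, a FACIT chain of tissue junctions such as that of muscle and tendon, had 1 read over the 30 h libraries and 79 over the 72 h libraries, with normalised counts of 0.975, 0 and 0 against 15.3, 34.0 and 26.2. The ratio of the groups was 75.9 after scaling for depth, given as a description only. It passed the filter through the 72 h libraries alone, so no p is given for it. COL19A1, a rare FACIT chain, did not pass the filter and had 1 read against 39, a ratio of 37.5. Both ratios rest on 1 read at 30 h, in replicate A, and neither is a test of a rise.

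Among type VI chains, COL6A3 fell and its partners COL6A1 and COL6A2 did not pass. Type VI collagen is assembled inside the cell from 1 chain of each of these kinds. COL6A3 (ENSG00000163359.15, chr2:237324003-237414375) stood at 92642, 89219 and 115088 at 30 h and at 34438, 34882 and 34532 at 72 h. The 72 h libraries were almost equal and all far lower. It fell 2.84-fold (log2 fold change -1.51, SE 0.0907, limma adjusted p = 1.96e-06).

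COL6A1 (chr21:45981737-46005050) stood at 33605, 32922 and 38308 at 30 h and at 31898, 34240.1 and 27841 at 72 h. COL6A2 (chr21:46098097-46132849), 93.0 kb away on the same strand, stood at 33272, 32202 and 38108 and at 33781, 37186 and 29113. The groups overlapped for both chains. The log2 fold changes were -0.16 for COL6A1 (SE 0.0878, limma adjusted p = 0.161) and -0.05 for COL6A2 (SE 0.0978, limma adjusted p = 0.688), and that of COL6A2 turned to 0.02 without 30 h replicate C. COL6A5 and COL6A6, alternatives to the third chain, had 0 reads in every library.

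The remaining classes are small. COL7A1 (ENSG00000114270.17, chr3:48564073-48595267), the only chain of the anchoring fibrils that tie epithelial basement membrane to the tissue below, stood at 2558, 2798 and 4693 at 30 h and at 7277, 6712 and 6332 at 72 h. All 72 h libraries were higher, with 30 h replicate C between the other 30 h libraries and the 72 h ones. It rose 2.10-fold (log2 fold change 1.07, SE 0.243, limma adjusted p = 0.0158). Without 30 h replicate C the log2 fold change was 1.34 (limma adjusted p = 3.06e-07), and without 72 h replicate C it was 1.11 and did not pass (limma adjusted p = 0.059). With a replicate block it did not pass either (limma adjusted p = 0.0614).

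COL8A1, a short-chain collagen of vessel walls and other matrices, stood at 1249, 1085 and 1192 at 30 h and at 866, 804 and 746 at 72 h. The groups were close but did not overlap. It fell 1.46-fold (log2 fold change -0.55, SE 0.0756, limma adjusted p = 0.000293). COL10A1, a short-chain collagen known as a marker of hypertrophic cartilage, stood at 46.8, 47.7 and 20.0 at 30 h and at 100.1, 137 and 47.2 at 72 h. Replicate C was the lowest at both times, so the groups overlapped. The log2 fold change was 1.26 (SE 0.494, limma adjusted p = 0.0786), and with a replicate block it passed (limma adjusted p = 0.0003).

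COL13A1 (chr10:69801931-69964275), a transmembrane collagen of cell adhesion sites, stood at 1198, 1152 and 1269 at 30 h and at 359, 329 and 312 at 72 h. Spread within each group was small beside the gap. It fell 3.62-fold (log2 fold change -1.86, SE 0.0737, limma adjusted p = 1.75e-07). COL17A1, the transmembrane collagen of epithelial hemidesmosomes, ranged from 3.15 to 33.1 over all libraries and did not pass (log2 fold change -0.77, SE 0.693, limma adjusted p = 0.401).

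The multiplexins are basement membrane collagens that carry sugar chains, and both fell, as did 25.0% of all genes tested. COL15A1 (ENSG00000204291.10, chr9:98943179-99070792) stood at 664, 533 and 685 at 30 h and at 42.9, 43.6 and 43.0 at 72 h. The 72 h libraries were nearly identical and more than an order of magnitude lower. The 14.1-fold fall was the largest among the tested chains (log2 fold change -3.82, SE 0.119, limma adjusted p = 4.43e-08). COL18A1, whose C-terminal fragment is endostatin, stood at 3611, 3538 and 4276 at 30 h and at 2146, 2104 and 2201 at 72 h. The groups did not overlap. It fell 1.76-fold (log2 fold change -0.82, SE 0.0732, limma adjusted p = 2.07e-05). Exons of SLC19A1 on the opposite strand overlap 16.4% of its exon bases, and no source used here says whether the counting used strand. In the other tested chains such overlaps reach at most 4.0%, in COL5A3.

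Of the 17 chains not tested, 6 had 0 reads in all libraries (COL4A3, COL4A4, COL9A1, COL20A1, COL6A5 and COL6A6), which with a floor of 3 reads allows up to 0.0360 CPM over the 83423762 reads of the 6 libraries. The other 11 had between 1 read (COL23A1, COL26A1) and 40 reads (COL19A1) in all, with no library above 17.4 normalised counts. Chains of the cartilage collagens were among them, such as COL2A1 with 5 reads, COL9A2 with 37 and COL11A2 with 38.

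Per length of exon, type VI chains were the most abundant collagen transcripts at both times. At 30 h the means per kb of exon were 6540.4 normalised counts for COL6A1, 6411 for COL6A2, 5042 for COL6A3, 3951 for COL1A1 and 3567 for COL12A1, followed by COL1A2 at 1881. COL6A1 and COL6A2 overlapped in their libraries, as did COL6A3 with COL1A1 and COL1A1 with COL12A1. At 72 h the means were 6194 for COL6A2, 5863 for COL6A1, 1763 for COL6A3, 1246 for COL12A1 and 1048 for COL1A1. Only the first 2 of these overlapped. COL7A1 moved from rank 13 at 303 per kb to rank 8 at 612 per kb, and COL5A2 from rank 7 at 1288 per kb to rank 12 at 202 per kb. Lengths are the union of all annotated exons, so a chain with many rare exons is understated.

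**Figure D3:**
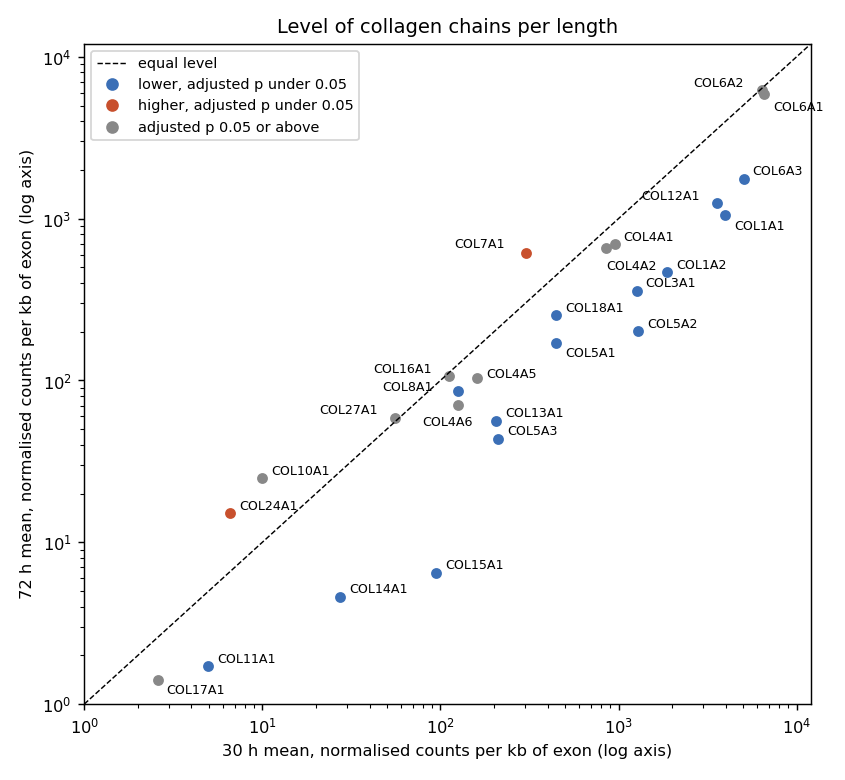
Mean level per kb of exon at 30 h (x axis) and 72 h (y axis), both on log axes, for the tested chains other than COL22A1. The dashed line marks equal levels, colours give the limma call, and COL6A1 and COL6A2 lie on the line at the top right while COL6A3, COL1A1 and COL12A1 lie below it.

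The share of all reads that came from collagen chains was lower at 72 h. It was 2.30%, 2.22% and 2.91% at 30 h and 1.29%, 1.33% and 1.16% at 72 h. Every 72 h library was below every 30 h library. The means were 2.48% ± 0.377 (SD, n = 3) and 1.26% ± 0.0895 (SD, n = 3), a 1.97-fold difference, with a two-sided exact permutation p = 0.1, the smallest that 3 against 3 can give. Within collagen reads, the fibrillar chains made up 24.8% at 30 h and 13.0% at 72 h, and FACIT chains 13.3% and 9.58%. Type VI chains made up 49.1% and 57.2%, type IV 9.75% and 14.3%, and type VII 0.975% and 3.90%. Of all reads, type VI went down from 1.22% to 0.720% and type IV from 0.242% to 0.180%. Their parts of the collagen reads grew because total collagen reads shrank more. The largest single share moved from 28.9% to 20.0% for COL6A3, while COL6A2 went from 10.1% to 19.2% and COL6A1 from 10.3% to 18.0%.

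**Figure D4:**
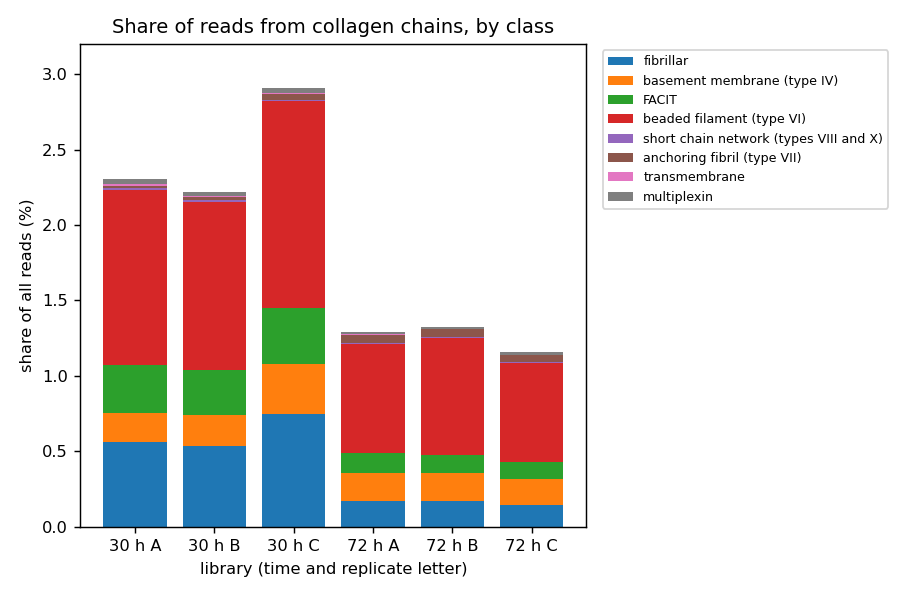
Share of all reads from collagen chains by class in each library, in percent. The 30 h libraries total 2.22% to 2.91% and the 72 h libraries 1.16% to 1.33%, with the fibrillar and type VI shares smaller at 72 h.

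Ratios of chains that assemble into the same molecule, or share fibrils, overlapped between the times in some pairs and not in others. The per-kb ratio of COL6A3 to COL6A2 was 0.764, 0.760 and 0.828 at 30 h and 0.280, 0.257 and 0.325 at 72 h. The ratio of COL5A1 to COL5A2 was 0.300, 0.326 and 0.402 at 30 h and 0.812, 0.762 and 1.00 at 72 h. Neither overlapped between groups, with a 2.74-fold lower ratio for the first and a 2.51-fold higher one for the second. The ratio of COL6A1 to COL6A2 was 1.02, 1.03 and 1.01 at 30 h and 0.952, 0.928 and 0.964 at 72 h, also without overlap. For each of these 3, the two-sided exact permutation p was 0.1, the smallest possible, and 0.2 after Benjamini-Hochberg adjustment over the 6 ratios computed.

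The ratio of COL1A1 to COL1A2 was 1.89, 1.94 and 2.44 at 30 h and 2.40, 2.11 and 2.26 at 72 h. The groups overlapped, with a log2 difference of 0.12 (exact permutation p = 0.4, adjusted p = 0.6). COL4A1 to COL4A2 also overlapped, between 1.01 and 1.19 over all libraries (log2 difference -0.06, exact permutation p = 0.5, adjusted p = 0.6). COL3A1 to COL1A1 lay between 0.251 and 0.428 over all libraries (log2 difference 0.16, exact permutation p = 0.6, adjusted p = 0.6).

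**Figure D5:**
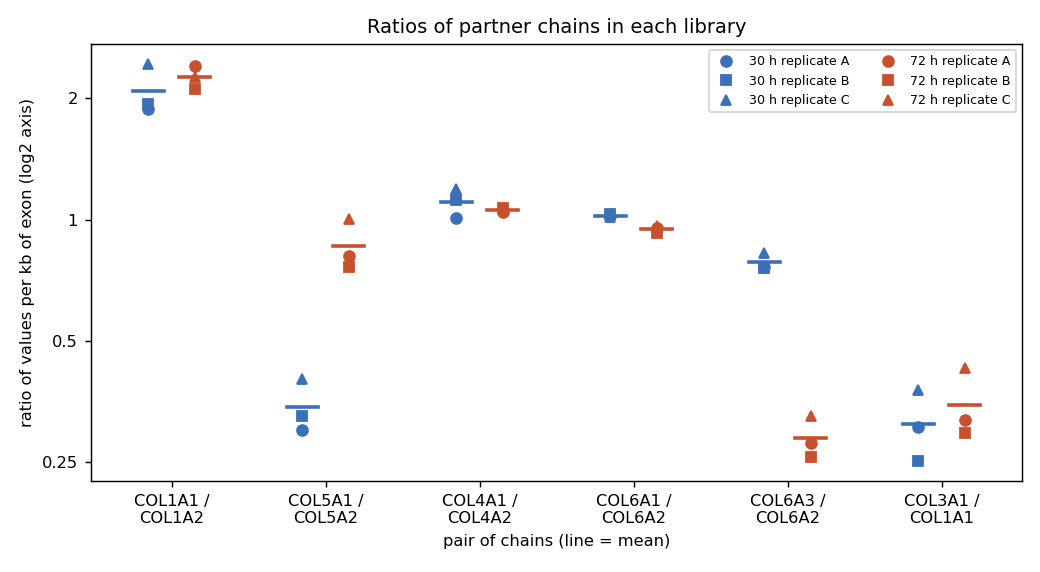
Per-kb ratio of partner chains in each library at 30 h and 72 h, on a log axis. COL6A3 to COL6A2 is lower and COL5A1 to COL5A2 higher in all 72 h libraries, while COL1A1 to COL1A2 and COL4A1 to COL4A2 overlap.

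Genes that modify, fold, export and cross-link collagen were examined as lists, each read against the 25.0% of all genes tested that fell and the 23.6% that rose. Collagen needs hydroxylated proline and lysine for a stable helix, a dedicated chaperone and large carriers to leave the cell, and copper enzymes to link the fibrils. Of 14 hydroxylation and glycosylation genes tested, 8 fell and 2 rose (25.0% and 23.6% of all genes), with a median log2 fold change of -0.48. P3H2, a prolyl 3-hydroxylase, fell 7.67-fold from 3771 ± 514 to 494 ± 94.8 (SD, n = 3 each; limma adjusted p = 2.45e-05), and P4HA3, a prolyl 4-hydroxylase subunit, fell 3.63-fold (limma adjusted p = 7.5e-05). P4HA1, another such subunit, rose 1.89-fold from 2256 ± 213 to 4257 ± 253 (SD, n = 3 each; limma adjusted p = 1.22e-05), and PLOD2, a lysyl hydroxylase, rose with a log2 fold change of 0.34, a call lost without 30 h replicate A (limma adjusted p = 0.0513).

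Of 14 tested folding and export genes 9 fell and 2 rose (25.0% and 23.6% of all genes), with a median of -0.27. CREB3L1, a membrane-bound transcription factor that drives collagen secretion genes, fell 3.63-fold (log2 fold change -1.86, limma adjusted p = 4.43e-08). SERPINH1, the collagen chaperone HSP47, fell 1.99-fold (limma adjusted p = 8.34e-05), and the ion channel gene TMEM38B rose 1.83-fold. MIA3, a receptor that loads collagen into carriers, rose with a log2 fold change of 0.28. Of 10 tested genes of propeptide removal and cross-linking 7 fell and 0 rose (25.0% and 23.6% of all genes), with a median of -0.88. The cross-linking enzyme LOX fell 5.82-fold from 5196 ± 273 to 894 ± 82.3 (SD, n = 3 each; limma adjusted p = 3.28e-08), its relative LOXL3 fell 6.37-fold, and ADAMTS2, which removes the N-propeptide, fell 2.48-fold.

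Other proteins meet collagen outside the cell, on the fibril or as receptors. Of 10 tested fibril-associated genes 5 fell and 1 rose (25.0% and 23.6% of all genes), with a median of -0.70. SPARC, a collagen-binding matricellular protein, fell 3.68-fold (log2 fold change -1.88), and fibromodulin (FMOD) fell with a log2 fold change of -1.62. POSTN, periostin, fell with a log2 fold change of -1.31, a call lost without 72 h replicate B or C (limma adjusted p = 0.051 and 0.0719) and without both replicates C (limma adjusted p = 0.102). TNC, tenascin C, rose (log2 fold change 0.24), a call lost without 30 h replicate B or 72 h replicate A (the higher limma adjusted p = 0.0865) and under quantile normalisation. Of 9 tested receptor genes 6 fell and 2 rose (25.0% and 23.6% of all genes), with a median of -0.51. The integrin subunits ITGA10 and ITGA1 fell 4.30-fold and 2.84-fold, while ADGRG1, an adhesion receptor that binds type III collagen, rose 6.19-fold. ITGB1, the shared beta subunit of the collagen-binding integrins, rose with a log2 fold change of 0.20, a call lost without 30 h replicate A or without any 1 of the 72 h libraries (limma adjusted p between 0.0553 and 0.0712) and under quantile normalisation (limma adjusted p = 0.35).

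Of 8 tested collagen-degrading proteases 3 rose and 1 fell (23.6% and 25.0% of all genes), with a median log2 fold change of 0.12. MMP3, stromelysin, stood at 8387 ± 4683 (SD, n = 3) at 30 h and rose 13.4-fold (log2 fold change 3.74, SE 0.439, limma adjusted p = 0.00165). MMP1, interstitial collagenase, rose 1.95-fold, and the fibroblast protease gene FAP rose with a log2 fold change of 0.62. MMP14, a membrane-bound collagenase, was the one that fell (log2 fold change -0.28). Of 15 tested TGF-beta pathway genes 4 rose and 5 fell, shares near the 23.6% and 25.0% of all genes, with a median of -0.14. Known targets of the pathway went both ways. CTGF fell with a log2 fold change of -2.61, while SMAD7, PMEPA1 and SKIL rose with log2 fold changes of 0.67, 0.78 and 0.35. The SKIL call was lost without 30 h replicate A or B or 72 h replicate A or C (limma adjusted p between 0.0801 and 0.0959). The receptor TGFBR1 rose 1.74-fold. Of 18 tested regulators of collagen transcription 3 rose and 9 fell (23.6% and 25.0% of all genes), with a median of -0.15. CEBPB and NFYA rose, with log2 fold changes of 0.76 and 0.57, and the remaining riser, SCX, was admitted by its 72 h libraries alone. PRRX2, PRRX1 and FLI1 fell, with log2 fold changes of -1.40, -1.10 and -1.01. By GENCODE 29, exons of many genes named from these lists overlap exons of other genes, so reads could be shared there: over 5% of exon bases are overlapped by a single other gene in LOXL3, CEBPB, FAP, CTGF, SPARC, MMP1 and PMEPA1, and less in P4HA1, P4HA3, MIA3, LOX, TNC, ITGA1, ITGA10, ITGB1, MMP3, FLI1 and NFYA.

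In the authors' deposited table, 34 collagen chains had an adjusted p and 16 were lower and 5 higher at 72 h, against 16.9% and 15.4% of all genes with an adjusted p there. The authors' deposited table also called COL4A2 (log2 fold change -0.37, adjusted p = 0.0459), COL4A6 (-0.82, adjusted p = 0.0337) and COL10A1 (1.31). COL19A1 was called higher there as well (log2 fold change 5.10), as was COL22A1. Each had 1 read over the 30 h libraries, so neither call is support for a rise.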

How the data were processed

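For the 6 RNA-seq libraries the submitters' processing notes name Trimmomatic 0.35, STAR 2.5.1b, DESeq2 1.18.1 and the genome GRCh38 (hg38). No source used here gives the counter, the annotation or the use of strand. The authors deposited a normalised signal per gene and library, which by its values is the read count over a size factor set per library, with the log2 fold change and p-value of their own comparison. Dividing by steps of 1 read gave whole reads for 100% of values (tolerance 0.01).

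The deposited normalised counts of genes with at least 10 in at least 3 libraries were tested as log2(value + 1) with limma 3.58.1 in R 4.3.3 (trend and robust, all 6 libraries, no covariate), with Benjamini-Hochberg adjustment over 13315 genes and a threshold of 0.05. Alternatives were pseudocounts of 0.5 and 5, other filters, edgeR 4.0.16 and DESeq2 1.42.0 on recovered reads, quantile normalisation, a replicate block, and leaving out libraries, of which leaving out both replicates C was chosen after seeing the data. Ratios and shares used exact permutation tests. Each chain with a mean of at least 50 was given by library, and 3 genes were named per pathway list, those with the largest change among members past the threshold whose higher group averaged 50 or more, and members past the threshold against the more frequent direction of their list were named after their values were seen. For 1 gene that this rule names, the result is not reported here. Of these methods, only the limma test was tried on simulated data. Lengths are from GENCODE 29 and promoters from RefSeq. The collagen chains and all gene lists were chosen with earlier results of these data known.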

Additional observations from a re-analysis of the deposited data

How the results depend on the processing

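Of the 27 collagen chains tested, 17 passed as reported, COL22A1 among them, beside 48.6% of all genes tested. When 1 library was left out, 16 to 20 of the 44 chains passed. The chains that rose numbered 3 as reported, where 23.6% of all genes tested rose. They numbered 5 with DESeq2 or in the authors' deposited table, where 15.4% of all genes with an adjusted p were higher. Those of the authors' table include COL19A1 and COL22A1, each with 1 read over the 30 h libraries. For type IV the count was 0 as reported, 2 with DESeq2, 2 in the authors' deposited table, 2 without both replicates C, and 0 to 2 when 1 library was left out. For type VI it was 1 as reported and 2 with quantile normalisation. For types VIII and X it was 1 as reported, 2 with no filter, with DESeq2, with the replicate block, in the authors' deposited table and without both replicates C, and 1 to 2 when 1 library was left out. For type VII it was 1 as reported, 0 with no filter and with the replicate block, and 0 to 1 when 1 library was left out. These class counts, and the 16 to 20 chains above, are given without the share of all genes called under each alternative setting. That share moves with the setting: 23.6% of all genes tested rose as reported, against 15.4% in the authors' deposited table. A changed count therefore does not show whether the chains or all genes moved past the threshold. The protease list had 4 calls as reported and 8 with no filter. That setting admits MMP8, MMP9 and MMP13, which had at most 5.27 normalised counts in any 30 h library. The larger count is therefore no support for more changes in this list. The log2 difference of the COL3A1 to COL1A1 ratio was -0.00257 to 0.31 when 1 library was left out, lowest without 72 h replicate C. COL27A1 lay between -0.0455 and 0.236 when 1 library was left out, and was negative without 30 h replicate A. COL6A2 lay between -0.135 and 0.0416 when 1 library was left out, positive (0.0202 and 0.0416) with either replicate C missing and 0.115 with both missing. The causes were not tested. With the replicate block, 17 chains passed, 14 lower and 3 higher. The set was not the reported one, since COL10A1 came in as higher and COL7A1 dropped out. By correlation of deviations, 30 h replicates B and C were closest to their own letters at 72 h (0.172 and 0.185). Replicate A was not, at 0.00696 with A and 0.0956 with B. The numbers therefore do not settle whether the letters pair the samples. COL22A1 could not be tested without any 1 of the 72 h libraries, since the filter then removes it. Chains under 10 normalised counts are limited by depth.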
